A study of Caenorhabditis elegans with 3 samples.

Results

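PQM-1 bound 250 sites inside the exons and untranslated regions (UTRs) of protein-coding genes, of 4739 sites on the nuclear chromosomes in the authors' optimal list. They make up 5.28% of the list (95% exact binomial interval 4.66 to 5.95%). A site was counted when the summit of its peak lay in a 5' UTR, a 3' UTR or a coding exon and outside every promoter, which runs from 1000 bp before to 200 bp past the outermost annotated start of each protein-coding gene. Of these sites 134 lay in coding exons, 60 in 5' UTRs and 56 in 3' UTRs, in 245 host genes. Another 288 summits also lay in an exon or UTR but within a promoter, and were counted there.

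The sites were measured by chromatin immunoprecipitation followed by sequencing (ChIP-seq) of whole Caenorhabditis elegans at the L4 larval stage, both sexes pooled. All worms were of strain OP201, genotype unc-119(tm4063) III; wgIs201, which carries PQM-1 fused to GFP and FLAG at its C-terminus, so the sites are those of the tagged protein from a transgene, averaged over all tissues. The 3 libraries form 1 group from 2 biological replicates, of which replicate 1 was sequenced as 2 technical libraries. There was no second condition, and each test compares sites or genome positions within the group. Sites are not replicates of the experiment, and their p-values describe sites.

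PQM-1 is a C2H2 zinc finger transcription factor of the intestine and other tissues, best known as a counterpart of DAF-16, the FOXO factor of insulin signalling. Its motif is the DAF-16-associated element, which contains the core bound by GATA factors such as ELT-2, the main regulator of intestinal genes. Most transcription factor sites are sought upstream of genes, whereas an exon must also keep its codons or its mRNA signals in the same bases.

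The sequences at strong sites show the element or otherwise a GATA core, mostly inside exon or UTR bases. For each class 5 of the strongest sites are given, on genome build ce11, as 30 bases around the copy nearest to the summit. Capitals mark the element (TGATAAG) where the 201 bp window around the summit holds one, and otherwise a GATA core, meaning GATA with A or T before it and A or G after it. The first 5 sites were in 5' UTRs, the next 5 in 3' UTRs and the last 5 in coding exons. All marked copies lay in the class of their site except that of end-1, which lay just outside the gene, and that of C40H1.7, which lay in an intron.
clec-140, chrII:4674378-4674407, minus strand: gtacggaagaacTGATAAcataagttcggc
drap-1, chrV:9731478-9731507, minus strand: ttcattctttaaTGATAAcgccatttattc
fbxa-14, chrIII:1323726-1323755, plus strand: caaatgccaaacTGATAAGatgtttgactt
klo-1, chrIV:7748007-7748036, plus strand: cggaatgataacTGATAAGaggtattttgt
sur-7, chrX:16377945-16377974, plus strand: gcaccttttttcTGATAGtgaacatcaagt
C05D11.8, chrIII:6422393-6422422, minus strand: ctgcaagacctgAGATAAgaaacgttaaaa
C39B10.7, chrX:10477834-10477863, plus strand: gtgcataactacTGATAAcagatcgaatgt
nipi-3, chrX:15610587-15610616, minus strand: cccaatgtttatTGATAAttcacaggctta
T14G8.3, chrX:12869995-12870024, plus strand: attttcccatatTGATAAagtcttctggaa
end-1, chrV:13987062-13987091, plus strand: tgacagttctacTGATAAGctctttttgtg
drd-1, chrII:8388376-8388405, minus strand: ttttgacttactAGATAAgcagtgggtcac
R08E3.3, chrX:4819073-4819102, plus strand: cattcattgaacTGATAAGgaaattgccgg
F57B1.6, chrV:13212697-13212726, minus strand: acgtggaccagcTGATAAGaacaaaagtga
C40H1.7, chrIII:9326746-9326775, minus strand: gttgatagttgcTGATAAGaaatgttgcga
ccdc-149, chrX:11509684-11509713, minus strand: cgatttgtgcaaTGATAAGcaaatggcgtt

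Both motifs were searched on both strands of the 201 bp around each summit, and the element always contains a GATA core. The element was present at 110 of the 250 exon and UTR sites, or 44.0% (37.8 to 50.4%), against 44.1% of all optimal sites. Promoter sites held it in 42.7% of cases, intron sites in 47.5% and intergenic sites in 44.2%. None of these differences passed the threshold (Fisher's exact test, two-sided, Benjamini-Hochberg adjusted p = 0.824, 0.488 and 1.00). Among equally wide windows centred 1000 bp away on either side, leaving out those that touched an optimal peak, 20 of 454 held the element, or 4.41% (Fisher's exact test, adjusted p = 8.41e-38). The element thus stood at exon and UTR summits far more often than beside them.

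The GATA core was present at 226 of the 250 sites, or 90.4% (86.1 to 93.8%), against 84.2% of all optimal sites and 39.2% of the flanking windows (Fisher's exact test, adjusted p = 1.89e-43). Promoter sites held it less often, at 79.9%, a difference of 10.5 percentage points (Fisher's exact test, adjusted p = 1.63e-04). The difference was 4.23 points and did not pass the threshold among the stronger 50% of the optimal peaks. Intron sites (87.9%) and intergenic sites (87.6%) did not differ from the members past the threshold (adjusted p = 0.488 for both, Fisher's exact test).

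Coding exon sites carried the GATA core most often of the 3 classes. It was found at 128 of 134 coding exon sites (95.5%), 50 of 60 in 5' UTRs (83.3%) and 48 of 56 in 3' UTRs (85.7%). Coding exon sites exceeded promoter sites by 15.6 points (Fisher's exact test, adjusted p = 2.07e-06). 5' UTR and 3' UTR sites exceeded them by 3.39 and 5.77 points, which did not pass the threshold (adjusted p = 0.624 and 0.594, Fisher's exact test). Between classes, coding exons stood above 5' UTRs by 12.2 points and above 3' UTRs by 9.81 points (Fisher's exact test, adjusted p = 0.0259 and 0.0445). The full element followed the same order in size, with 67 of 134 coding exon sites, 41.1% of 3' UTR sites and 33.3% of 5' UTR sites, but no pair passed the threshold (adjusted p = 0.405, 0.126 and 0.444 for coding exon against 3' UTR, coding exon against 5' UTR and 5' UTR against 3' UTR, Fisher's exact test). These comparisons of the GATA core by class were chosen after the values were seen.

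**Figure D1:**
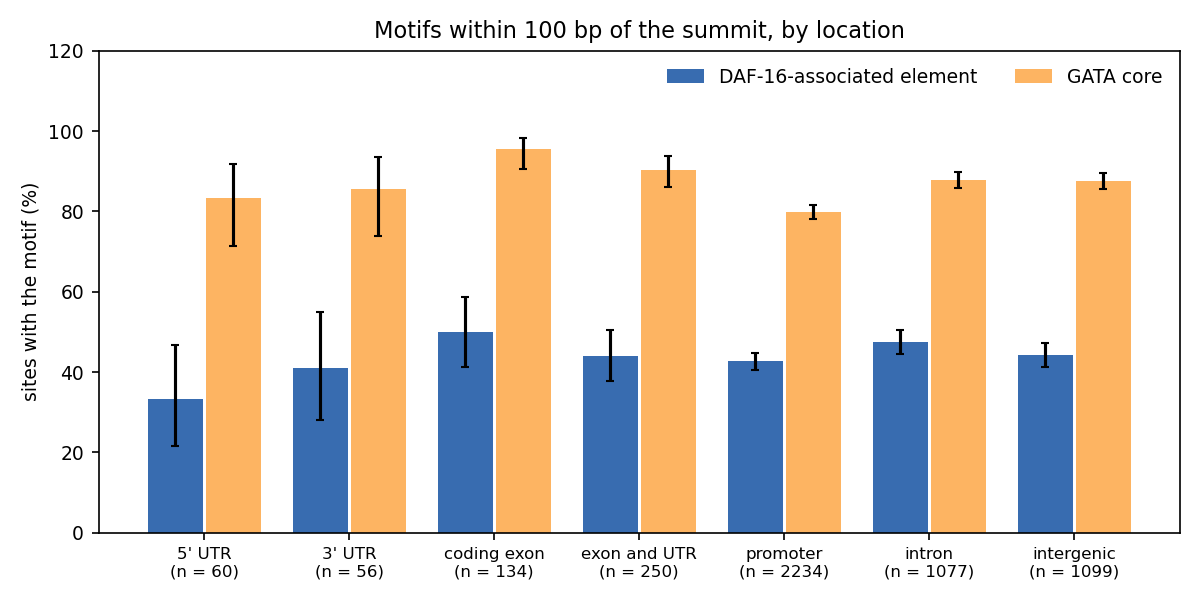
Share of sites (%) with the DAF-16-associated element (blue) or any GATA core (orange) within 100 bp of the summit, by location, with 95% exact binomial intervals as error bars. The GATA core reached 95.5% in coding exons and 79.9% in promoters, while the element lay between 33.3% in 5' UTRs and 67 of 134 in coding exons.

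The copies near the summits were mostly in the exon or UTR itself. Of the 110 sites with the element, the copy nearest to the summit lay in the site's own class at 84 (76.4%), at a median of 22.5 bp from the summit, and 90 were within 50 bp. At coding exon sites 47 of 67 such copies were in coding sequence and 17 in a neighbouring intron. At 5' UTR sites 17 of 20 were in a 5' UTR, and at 3' UTR sites 20 of 23 were in a 3' UTR. The element pointed along the host's transcription in 52 of 110 cases, made up of 39 of 67 at coding exon sites, 9 of 20 at 5' UTR sites and 4 of 23 at 3' UTR sites, differences that were not tested. The nearest GATA core of the 116 sites without the full element lay in the site's own class at 93 (80.2%), at a median of 25.5 bp. Members were selected by a summit in the class, so a nearby copy often shares it, and no expected share was computed.

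**Figure D2:**
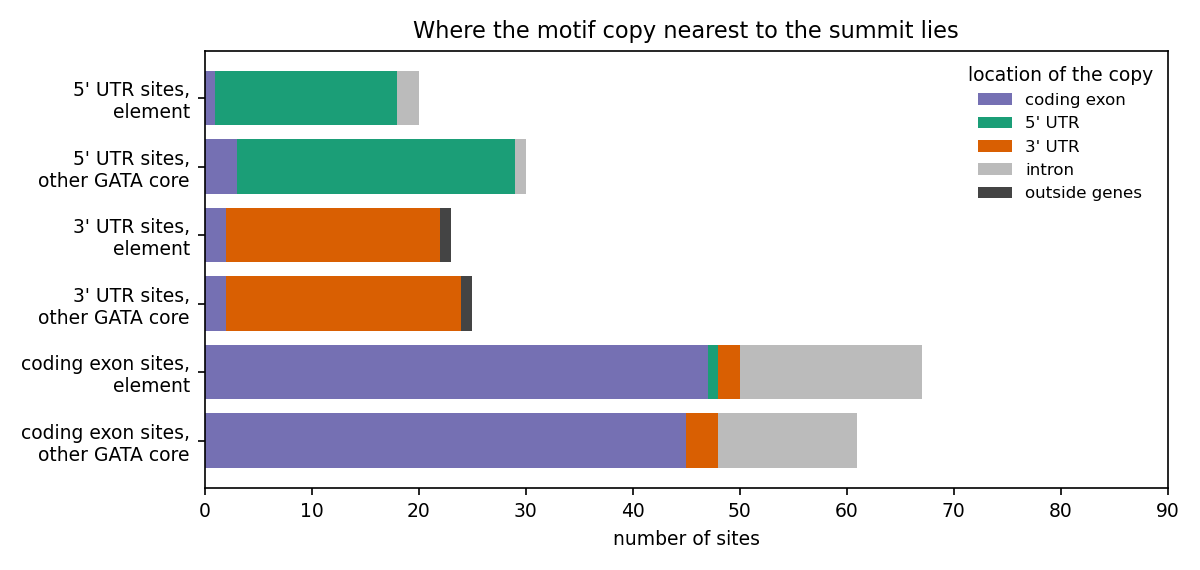
Number of sites (horizontal axis) in each class by the location of the motif copy nearest to the summit, separately for sites with the DAF-16-associated element and for those with another GATA core only. Most copies lay in the class of their site, and 17 of the 67 elements at coding exon sites lay in an intron.

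A total of 24 sites held no GATA core in the window, of which 10 were in 5' UTRs, 8 in 3' UTRs and 6 in coding exons. The strongest of them was the first of the pair of sites in hpo-34, with a signal of 123. Next were Y38F2AL.12 at 105, Y105E8B.6 at 85.3, F10C2.3 at 71.9 and F22D3.4 at 70.8. The summits of Y38F2AL.12, Y105E8B.6 and F22D3.4 also lay in an annotated noncoding RNA gene. Among all members 5 had another annotated gene at the summit. Further down this group were lys-1, a lysozyme gene, at 47.4, and nhr-66, a nuclear hormone receptor gene, at 39.4. The site of egl-30, which encodes a G protein alpha subunit, had 37.4. At the other end, 25 of the 250 sites held more than 1 copy of the element. Of these 15 were in coding exons, which held 134 of all members. Sites with more than 1 copy were not counted in other locations.

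In the strength of binding, given as the authors' signal per peak in the optimal list, no difference between exon and UTR sites and the others passed a test. Their signals ran from 31.9 to 204 with a median of 54.4, against 55.4 over all optimal sites, 55.1 in promoters, 55.9 in introns and 55.6 in intergenic sequence. The share above the list median was 49.2%, against 49.6%, 50.5% and 50.4% in those locations (Fisher's exact test, adjusted p = 0.947 for each). By class the medians were 57.4 in 5' UTRs, 54.4 in coding exons and 45.8 in 3' UTRs, a difference that was not tested. Signals from different lists were normalized separately, so values are set side by side below and their levels are not compared.

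An overlapping peak stood in replicate 1's own list for 246 members (98.4%) and in replicate 2's for 249 (99.6%), against 4705 and 4737 of all 4739 optimal sites. The optimal list was cut by the irreproducible discovery rate, and its sites match the strongest peaks of the pooled list in number and signal range. The replicates' lists of 24037 and 19029 peaks also hold background. This overlap therefore follows largely from how the sites were selected. ZK484.6, gon-14, tbc-2 and dep-1 had none in replicate 1 and ets-10 had none in replicate 2. These 5 had optimal signals between 34.8 and 44.4, in the lower part of the range. Over the 245 sites found in both, the replicates' signals had a Spearman correlation of 0.614, which describes sites that share the same libraries. A stricter count required overlap with one of the 4739 strongest peaks in both replicates, and 191 members met it (76.4%), against 1675 of 2234 promoter sites, 77.2% of intron sites and 75.2% of intergenic sites (Fisher's exact test, adjusted p = 0.803 for each). By class the counts were 50 of 60 in 5' UTRs, 105 of 134 in coding exons and 36 of 56 in 3' UTRs.

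**Figure D3:**
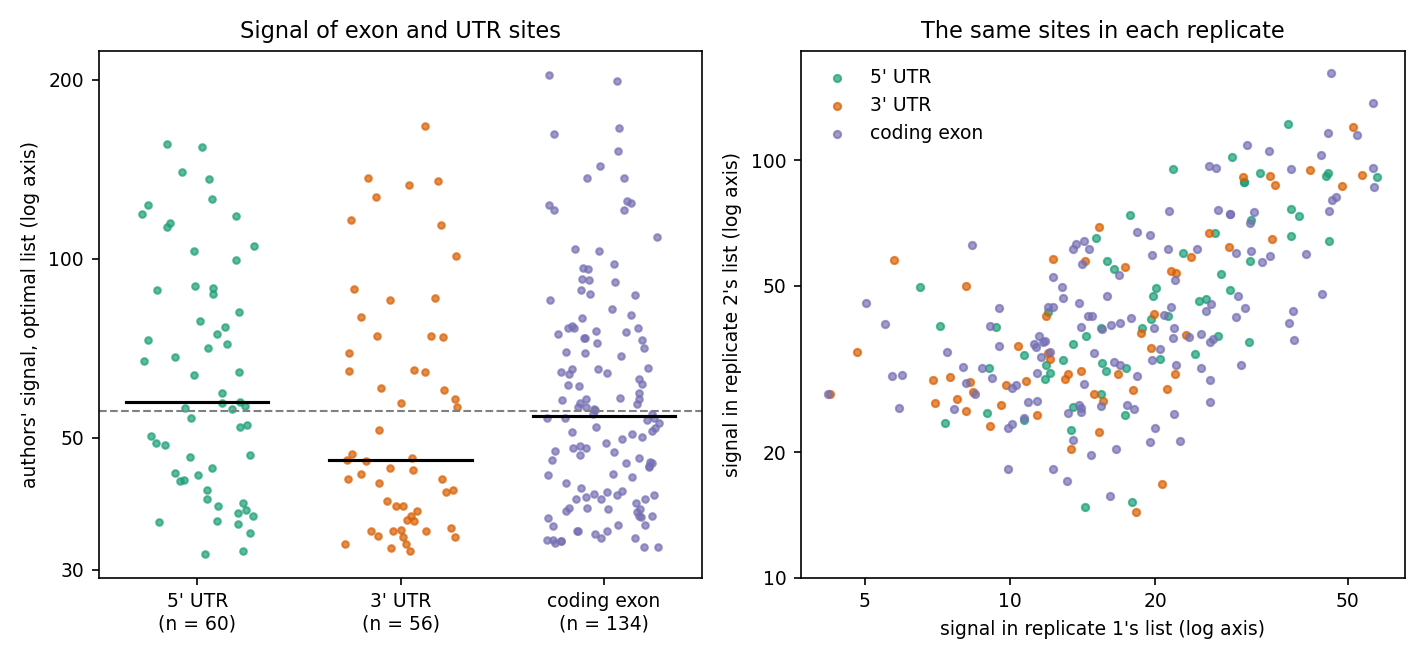
Left, authors' signal in the optimal list (log axis) of the 250 sites by class, with class medians as black lines and the median of all optimal sites (55.4) dashed. Right, signal of the 245 sites found in both lists, replicate 1 against replicate 2 (log axes); strong sites in one tended to be strong in the other (Spearman correlation 0.614).

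The strongest site of all members lay in a coding exon of lfe-2, which encodes the inositol trisphosphate 3-kinase that ends calcium signalling by this messenger. Its signal was 204 in the optimal list, 46.2 in replicate 1 and 162 in replicate 2, and it ranked 31st among the 4739 sites. The element nearest to its summit was 6 bp away in coding sequence, and a second copy lay in the window. The exon is the first of the transcript C46H11.4a.1, whose start lies 265 bp upstream. A second site, in a 5' UTR of lfe-2, had a signal of 49.0.

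Next among coding exon sites was drd-1, with 199 in the optimal list, 56.4 in replicate 1 and 137 in replicate 2, at rank 35. Its copy is a GATA core 1 bp from the summit, on the strand opposite to the gene. The summit lay 54 bp past another annotated start of drd-1, and the gene also had a promoter peak with a signal of 85.6. R08E3.3 had signals of 166, 52.2 and 115 in the optimal, replicate 1 and replicate 2 lists. F57B1.6 had 162, 45.5 and 116 in the same order. The element of R08E3.3 lay 33 bp from the summit in exon 4 of 12, and that of F57B1.6 35 bp away in exon 4 of 6, both in coding sequence.

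The remaining coding exon sites of the 8 strongest had optimal signals between 137 and 152. C35E7.4 had 152, 56.4 and 96.0 in the optimal, replicate 1 and replicate 2 lists. C40H1.7 had 143, 44.1 and 103, with its element 84 bp away in an intron. The last pair tied at 137 in the optimal list, that of ccdc-149 with 34.3 and 105 in the replicates and that of F57C12.6 with 31 and 109.

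In 5' UTRs the strongest site was that of clec-140, a C-type lectin gene, with 156 in the optimal list, 57.6 in replicate 1 and 91.3 in replicate 2. The next was drap-1, named for a subunit of the NC2 repressor of transcription, with 154, 37.7 and 122. Both also had a promoter peak, with signals of 68.1 and 42.2, weaker than the site in the UTR. fbxa-14, an F-box gene, had 140, 45.0 and 91.9, with the element 7 bp from the summit. klo-1, a homologue of the mammalian Klotho gene, had 136, 45.5 and 93.4, with the element 12 bp away.

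The other 5' UTR sites among the 8 strongest had signals between 118 and 126. F21A9.1 had 126, 28.8 and 102 in the optimal, replicate 1 and replicate 2 lists. sur-7, which encodes a zinc transporter of the cation diffusion facilitator family, had 123, 33.0 and 93.2. ipla-1, a phospholipase A gene, ranked 332nd in the optimal list and had 38.1 and 76.4 in the replicates. noca-1, needed for microtubule arrays away from centrosomes, had 118, 30.5 and 88.8.

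In 3' UTRs the strongest site was that of C05D11.8, with 167, 51.4 and 120 in the optimal, replicate 1 and replicate 2 lists, and a GATA core 50 bp from the summit. C39B10.7 had 137, 53.6 and 92.2, and its site lay 3470 bp upstream of the start of elt-2, the gene of the intestinal GATA factor. The elt-2 gene had a promoter peak of its own with a signal of 136. nipi-3, a Tribbles-family kinase gene of the immune response, had 135, 41.8 and 94.5. T14G8.3 had 133, 48.6 and 86.8.

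end-1, which encodes a GATA factor that specifies the endoderm, had 127, 34.6 and 91.5, with the summit in its last exon and the element 4 bp away just past the end of the gene. ifd-1, an intermediate filament gene of the intestine, had 116, 35.4 and 87.4, and its promoter peak was stronger, at 162. R07G3.8 had 114, 30.3 and 91.3. sid-5, a gene of systemic RNA interference, had 101, 34.9 and 64.8, with the element 42 bp from the summit.

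The threshold of the rule fell between close neighbours. Just inside the promoter, and so left out, were nhr-131 (190 bp from the start, signal 64.7), fbxa-84 (198 bp, 34.5) and C55B6.1 (200 bp, 106). Just outside were the members klo-1 (215 bp, 136), C18A11.1 (217 bp, 43.3) and R08C7.12 (238 bp, 57.3).

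Many 5' UTR sites lay near another start of their own gene. Counting every annotated transcript, 37 of the 60 5' UTR sites were from 1000 bp before to 200 bp past a start of the host, against 20 of 134 in coding exons and 1 of 56 in 3' UTRs. In 50 of the 60 the summit was in the first exon of a transcript. A 5' UTR by definition opens at a transcript's start, so both counts are partly built into this class. With promoters drawn at the starts of every annotated transcript, members went from 250 to 191 and intron sites from 1077 to 748. Nearness to an inner start was thus not particular to members. Several of the 8 strongest sites of each class also lay near another start of their gene. Measured from the nearest start of the host, the summits of drd-1, drap-1, klo-1 and ipla-1 lay at 54, 103, 61 and 2 bp. Those of C40H1.7 and F21A9.1 lay at -170 and -84 bp, before the start. The other strongest sites lay more than 200 bp past their nearest start. 3' UTR sites were in the last exon in 53 of 56 cases. Coding exon sites were spread along the gene, with 29, 51 and 54 from the first to the last of 3 equal parts, and 109 of 134 had the summit within 100 bp of an exon edge. The coding segments that held them had a median length of 150 bp, against 144 bp over all coding segments. Their exons had a median length of 177 bp, at which every base lies within 100 bp of an edge. The count near edges thus follows in part from exon length, and no share for other coding positions was computed. Host genes of members had a median length of 3636 bp, against 2027 bp over all protein-coding genes. Finally, 44 members lay between 1000 and 2000 bp upstream of the start of another gene. No such count was made for the other optimal sites or for other exon positions.

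The host genes were 1.24% of all protein-coding genes, or 247 with the second hosts of 2 sites counted. Of the 245 hosts 74 also had a promoter peak, or 30.2% (24.5 to 36.4%), against 12.8% of all protein-coding genes. At 76 sites the host had such a peak, and at 35 of these the exon or UTR site was the stronger. Longer genes hold more bases in which a summit can lie, and their part in this overlap was not tested. The pqm-1 and unc-119 genes had neither a member nor a promoter peak, and daf-16 had no member but 5 sites in introns.

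Some detoxification and immune gene families held several hosts, and others few or none. Against the 1.24% of all genes, C-type lectins, secreted or membrane proteins that include immune effectors, had 7 hosts of 237 genes (2.95%). UDP-glucuronosyltransferases, which conjugate foreign and endogenous compounds, had 4 of 67 (5.97%), and cytochrome P450 genes, which oxidise them, had 4 of 74 (5.41%). Nuclear hormone receptors had 2 of 269 and F-box genes 1 of 315. No host was found among 78 ribosomal protein genes, 156 collagen genes, 50 histone genes, 44 glutathione S-transferase genes or 21 vacuolar ATPase genes. Of these, 37 ribosomal protein, 13 glutathione S-transferase and 12 vacuolar ATPase genes had a promoter peak. These counts describe small numbers and were not tested.

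Lists of tissue genes held 1 host or a few each, and several held none. Over all protein-coding genes 1.24% were hosts, a share at which lists this short often hold none. The counts were not tested, and each list holds only some genes of its tissue or pathway. Of 23 intestinal genes asp-3, a cathepsin D-like protease, and ifc-2, an intestinal intermediate filament gene, were hosts. The ifc-2 site, in a coding exon, had 124, 45.8 and 75.5 in the optimal, replicate 1 and replicate 2 lists, and the asp-3 site, in the 3' UTR, had 60.2, 23.1 and 38.2. Among 12 muscle genes mup-2, encoding troponin T, was a host in its 3' UTR, with 79.8, 23.7 and 58.8. Among 11 germline genes him-8, a zinc finger protein of the X chromosome pairing centre, was a host in a coding exon, with 38.1, 10.9 and 26.4. None of the 12 neuronal and 10 hypodermal genes on these lists was a host. end-1 was the only host among 12 GATA factor genes, and fars-2, a phenylalanyl-tRNA synthetase gene with a coding exon site of signal 64.4, the only one among 32 tRNA synthetase genes. No host was found among 31 translation factor genes, 45 ABC transporter genes, 16 kinesin and dynein genes, 12 insulin pathway genes, 14 genes of protein folding in the endoplasmic reticulum and 7 heat shock genes.

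In 5 genes there were 2 members each. These were clec-80 (signals 73.5 and 46.3), hpo-34 (123 and 34.8), lfe-2 (204 and 49.0), noca-1 (118 and 42.3) and ugt-47 (96.4 and 36.6). The paired sites of noca-1 and of ugt-47 lay next to each other and overlapped one and the same peak in each replicate's list, so each pair may be counted as 1 site.

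Seen from the genome, elements in coding exons were seldom at a summit. The element occurred 4825 times in exons and UTRs outside promoters, and 130 copies (2.69%, 2.26 to 3.19%) lay within 100 bp of an optimal summit. The share was 22.1% of 5224 copies in promoters, 14.8% of 4261 in introns and 15.1% of 3793 in intergenic sequence (Fisher's exact test, adjusted p = 2.31e-211, 5.30e-101 and 1.36e-100). The classes differed among themselves. In 5' UTRs 27 of 181 copies were at a summit (14.9%), in 3' UTRs 30 of 414 (7.25%) and in coding exons 73 of 4230 (1.73%). Coding exons were below 5' UTRs and 3' UTRs (Fisher's exact test, adjusted p = 9.62e-16 and 2.12e-09), by a ratio of 8.64 and 4.20. With promoters drawn at the starts of every annotated transcript, 11 of 101 copies in 5' UTRs were at a summit. Coding exons then differed from 5' UTRs by -9.34 points, against -13.2 as reported. This comparison was chosen after the data were seen, and copies near one summit are not independent.

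The X chromosome held more of the members than of the other sites. It carried 80 of 250 (32%, 26.3 to 38.2%), against 21.7% of the other optimal sites (Fisher's exact test, two-sided, p = 2.27e-04). Those other sites differed by location, with 19.2% of promoter sites, 23.9% of intron sites and 24.4% of intergenic sites on X. Members were not tested against each location separately. By class X held 48 of 134 coding exon sites, 17 of 56 3' UTR sites and 15 of 60 5' UTR sites. Of the sites on each chromosome, members made up 7.60% on X, 6.15% on V and between 3.44 and 4.57% on the other four.

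The same was seen in the share of elements at a summit in coding exons. On X 28 of 611 copies in coding exons were at a summit, or 4.58% (3.07 to 6.56%), against 45 of 3619 on the autosomes, or 1.24% (0.908 to 1.66%) (Fisher's exact test, two-sided, p = 3.27e-07). Each autosome on its own lay below X, between 0.614 and 1.89%. In promoters the share was 23.3% on X and 21.9% on the autosomes, and in introns 14.9% and 14.7%. Intergenic copies went the other way, with 105 of 890 on X and 469 of 2903 on the autosomes (odds ratio 0.694). In the UTRs the intervals were wide, with 9.09% on X and 6.67% on the autosomes in 3' UTRs and 6.06% and 16.9% in 5' UTRs, and these were not tested. The ratio of odds between X and autosomes was 3.81 in coding exons and 1.08 in promoters, and the difference passed the test (interaction in a logistic model of binomial counts of copies, ratio of the odds ratios 3.53, 2.11 to 5.90, adjusted p = 4.94e-06). Against introns and intergenic sequence the ratio was 3.78 (2.24 to 6.36) and 5.49 (3.23 to 9.34), with, from the same binomial model, adjusted p = 3.19e-06 and 1.12e-08. This comparison was also chosen after the data were seen, and X is a single chromosome.

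**Figure D4:**
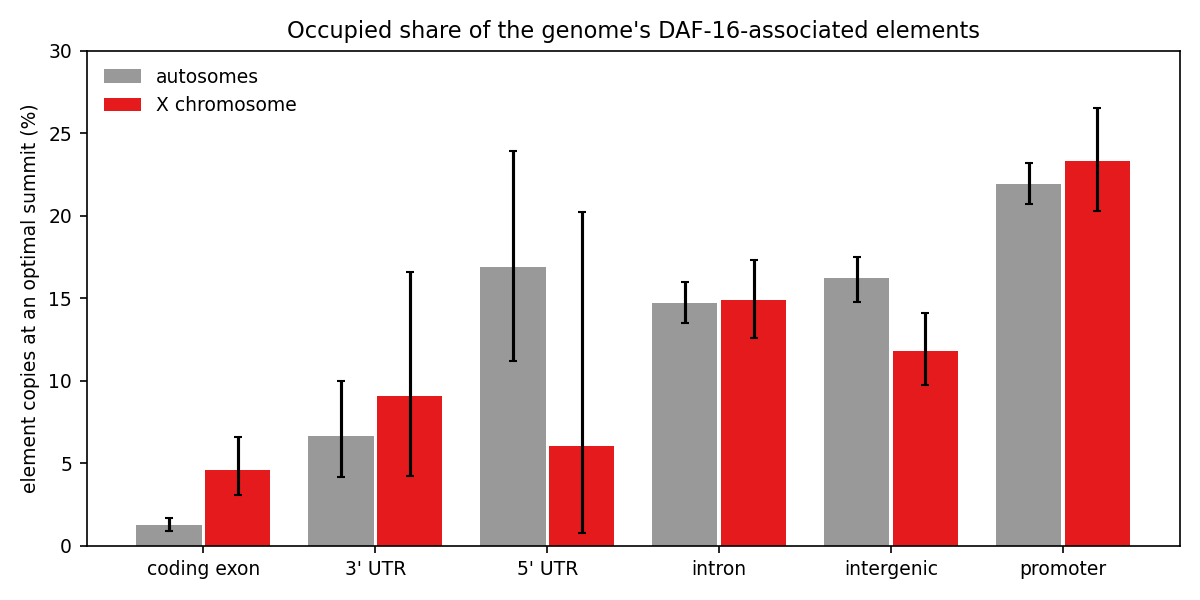
Share (%) of the genome's copies of the DAF-16-associated element that lay within 100 bp of an optimal summit, by location, on the autosomes (grey) and the X chromosome (red), with 95% exact binomial intervals. In coding exons X reached 4.58% and the autosomes 1.24%, while in promoters they were at 23.3% and 21.9%.

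The element can be read in a protein in 5 ways. Read along the gene from codon position 1 it would be a pair of stop codons, and no coding copy stood in that frame. Of 4160 copies that lay in a single reading frame of one coding segment, the most common reading was that of aspartate and lysine codons, with 1746 copies, of which 37 (2.12%) were at a summit. The reading of leucine and isoleucine codons, from the reverse complement, had 1034 copies, of which 13 (1.26%) were at a summit. Copies along the gene were at a summit in 45 of 2047 cases (2.20%) and copies against it in 27 of 2113 (1.28%), a difference that was not tested.

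The bases beside the element differed between copies at a summit and the other copies. The 130 exon and UTR copies at a summit had A just after the element in 57.7% of cases, against 33.5% of the other 4695 copies (Fisher's exact test, adjusted p = 7.35e-07). C just before it was found in 35.4%, against 19.7% (Fisher's exact test, adjusted p = 3.99e-04), and A one base further upstream in 47.7%, against 32.7% (adjusted p = 0.00269, Fisher's exact test). T just after it was rarer, at 8.46% against 23.6% (adjusted p = 1.50e-04, Fisher's exact test). The element of klo-1, printed above, has the A after and the C before. Promoter copies at a summit had the same A after the element in 61.8% and the same C before it in 34.5% of 1155 cases. Promoter copies away from a summit were not counted. The comparison of exon and UTR copies pooled the 3 classes, whose shares differed between the 2 groups. Coding exons held 73 of the 130 copies at a summit, but 4230 of all 4825 copies. Whether the bases differ within a class was not tested. This comparison was chosen after the data were seen.

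Exon and UTR peaks were a small part of the strong peaks and a larger part of the weak ones. In the authors' pooled list of 18821 peaks, the 4739 strongest were 5.28% exon and UTR peaks, and the rest of the list 17.7% (2494 of 14082, Fisher's exact test, two-sided, p = 6.70e-116). These strongest peaks gave the same counts as the optimal list, with 250 exon and UTR peaks, 110 with the element and 226 with the GATA core. By blocks of rank the exon and UTR share went from 5.28% to 9.92%, 20.6% and 22.8%. Coding exons accounted for most of this, from 2.83% in the first block to 17.7% in the last, and 5' UTR peaks went from 1.27% to 0.825%. Over the same blocks the element was present at 44.0%, 19.1%, 4.62% and 4.10% of exon and UTR peaks, and the GATA core at 90.4%, 62.8%, 40.6% and 39.2%. The windows beside the members held them in 4.41% and 39.2% of cases. Windows beside the weaker peaks were not counted, and motif shares by rank were not computed for other locations. The lower part of the list was made as input for a later threshold and also holds background peaks, per the deposited readmes.

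**Figure D5:**
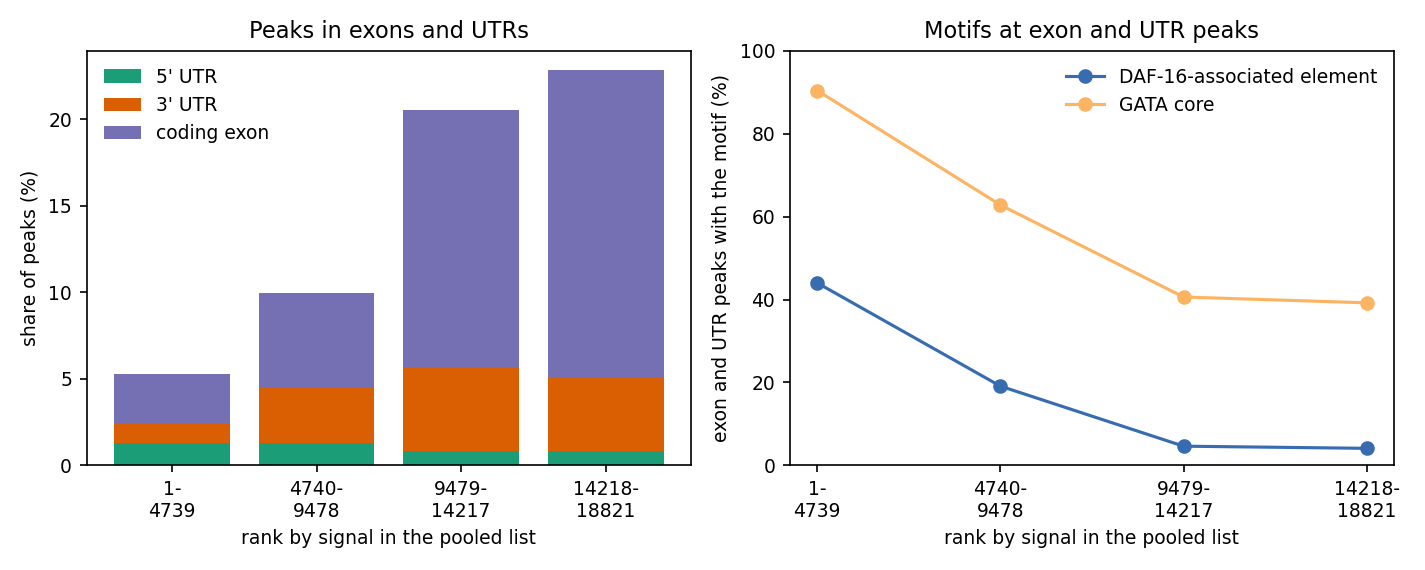
Left, share (%) of peaks in 5' UTRs, 3' UTRs and coding exons in blocks of rank by signal in the pooled list. Right, share (%) of those exon and UTR peaks with the DAF-16-associated element (blue) or a GATA core (orange). The exon and UTR share rises from 5.28% to 22.8% while the element falls from 44.0% to 4.10%.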

How the data were processed

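PQM-1 ChIP-seq peaks of 1 group (3 libraries, 2 biological replicates) were used in 4 lists on build ce11: the optimal list (cut by irreproducible discovery rate), the pooled list and the list of each replicate. Per the deposited readmes, the lists were made from alignments with a control. Each peak carries a signal value set by the authors, and no read counts, so the depth behind a value is unknown and intervals cover sampling of sites only. The aligner, the peak caller and the threshold were not given in the sources used here. The control library and the lists on the older build were not used here.

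Summits were placed on Ensembl release 115 (WBcel235, the ce11 assembly) as promoter first, then 5' UTR, then 3' UTR, then coding exon, and after these intron, other gene or intergenic, with the stop codon counted as coding exon. Motifs were matched on both strands of the genome sequence from RefSeq, which is also the source of the sequences printed. Shares carry exact Clopper-Pearson intervals at 95%, and were compared by Fisher's exact test with Benjamini-Hochberg adjustment within each family of comparisons, at a threshold of 0.05. Named genes were the hosts of the 8 strongest sites of each class, hosts with more than 1 site, list members, and elt-2, daf-16, pqm-1 and unc-119. Sites named for lacking a motif, for being absent in a replicate or at the edge of the promoter were chosen after their values were seen. The members, lists and tests were chosen with earlier results of these data known. Placing, motif matching and tests were checked on simulated data. Python 3.11.15, numpy 2.4.6, scipy 1.17.1, statsmodels 0.14.6 and matplotlib 3.10.9 were used. Alternatives changed the promoter, window, overlap, summit, flanks, replicates and strength of peaks. Leaving out a replicate meant using the 4739 strongest peaks of the other one's list.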

Additional observations from a re-analysis of the deposited data

Results flagged for a closer look

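For DAF-16-associated elements, the odds of lying at a summit on X relative to the autosomes differed between coding exons and each of promoters, introns and intergenic sequence. The ratio of the odds ratios was 3.53 for coding exons against promoters, 3.78 against introns and 5.49 against intergenic sequence. Each passed the interaction test over copies. The odds ratio was above 1 in coding exons (3.81) and below 1 in intergenic sequence (0.694). UTRs were not tested in this way.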

How the results depend on the processing

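Across 15 settings, 244 values of 26 results were recomputed, and 220 kept their direction and their side of the threshold, or stayed within 1.5 times for the count of sites. With only the stronger 50% of the optimal peaks there were 123 members, the GATA core difference against promoters no longer passed (4.23 points), and small differences changed sign: the element against promoters (-2.80), the GATA core against introns (-0.254) and intergenic sites (-1.45), and the share found in both replicates against introns (0.318) and intergenic sites (-0.0925). The element against intergenic sites, -0.222 points as reported, was 0.220 to 0.319 when a replicate was left out, 0.281 with a 2000 bp promoter or with every transcript's start, 1.93 with 50 bp and 2.17 with 200 bp to each side. The share above the median signal changed sign against promoters with peak midpoints (0.159) and against promoters (0.284) and intergenic sites (0.657) with a 2000 bp promoter. The share found in both replicates changed sign against promoters with a 500 bp promoter (-0.961), every transcript's start (-2.40) or 50% overlap (-0.298), against introns with a 2000 bp promoter (0.691) and against intergenic sites with every transcript's start (-2.38). None of these reversed values passed a test before or after. The element in coding exons against 5' UTRs passed with 200 bp to each side (27.1 points), and coding exons passed against 5' UTRs (12.2) and 3' UTRs (9.81) with the GATA core in place of the element. The cause was not tested. Without replicate 1 there were 254 members and without replicate 2 286, and 308, 206 and 191 with a 500 bp promoter, a 2000 bp promoter and every transcript's start. The X difference in coding exons, chosen after seeing the data, stayed between 1.87 and 4.23 points and passed in all its 10 alternatives. The lists hold no read counts, so how far depth limits the weaker sites cannot be given, and with 2 biological replicates the spread between them is poorly known: 31.1% of the exon and UTR sites among the strongest peaks of replicate 1 and 34.6% among those of replicate 2 lay on X.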
